A study of Rattus norvegicus with 9 samples.

Results

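Interferon-stimulated genes were followed in RNA from rat pubococcygeus muscle, a striated muscle of the pelvic floor. The set was defined by name as 9 genes, namely the regulators Irf7, Irf9 and Stat2 and the antiviral effectors Isg15, Mx1, Mx2, Ifit2, Ifit3 and Rsad2. Of these, 7 have a row among the 30518 rows of the tables and all 7 were among the 16256 genes that passed the filter on low counts. Irf9 and Isg15 are not analysed here. All 7 genes were highest in 1 library of the stimulated group, replicate 2. No difference between groups passed the test for any of them.

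The tissue came from female Sprague-Dawley rats in 3 groups of 8 rats, with 3 libraries sequenced per group. Blank rats had neither surgery nor treatment. The SUI group modelled stress urinary incontinence. These rats were ovariectomised on both sides, and their vagina was stretched by an 8 Fr balloon holding 3 mL of saline under a 120 g weight for 4 h, with no treatment afterwards. Stimulated rats had the same surgery and, from 1 week later, electrical stimulation of the pelvic floor through the vagina at 50 Hz and 20 mA in 200 μs monophasic square pulses, for 30 min a day on 5 days a week over 2 weeks. Ovariectomy and distension always came together, so their effects cannot be told apart, and the groups described include no rats with a sham operation or sham current. The library names call the SUI group sham, and the titles, which give the full model, were followed. It is not stated which of the 8 rats the 3 libraries came from, so the p-values measure only the spread between libraries, which may be technical.

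Type I interferons bind the receptor made of Ifnar1 and Ifnar2 and activate the kinases Jak1 and Tyk2, which phosphorylate Stat2 among other proteins. Stat2 and Irf9 are subunits of the complex ISGF3, which binds the interferon-stimulated response element (ISRE) in the promoters of its target genes. Irf7 is both a target and a regulator, since it drives further interferon transcription once activated, and the effector proteins act on viral RNA, capsids or membranes. In skeletal muscle the same genes are known as a marker of type I interferon exposure in inflammatory myopathies such as dermatomyositis.

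The libraries held 50833480 to 147650284 counts. Values are given as CPM, counts divided by library size after TMM scaling in edgeR, so 3 counts correspond to 0.02103 to 0.07943 CPM depending on the library. Blank replicate 1 was the shallowest and differed from the rest, with 32.9% of its counts on mitochondrial genes against 13.4% to 17.7% in the other 8. The muscle label was met by the actin Acta1, at 30200 to 59500 CPM in every library. In whole tissue, fewer cells of a type and less RNA per cell cannot be told apart.

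The promoter sequences come first because the letters bound by ISGF3 can be read in several of them. Windows of the 250 bases before the start of the gene were taken from RefSeq on GRCr8, a different build from that of the count tables. A single window per gene, the first listed, was used, so any other annotated start of a gene was not searched. Among the 7 genes, 5 were matched by symbol, and Mx2 and Ifit2 were not. The letters searched were GAAA, any 2 bases and GAAA again, the core of the ISRE, which reads TTTC, any 2 bases and TTTC on the other strand. Both strands were searched. They occurred in 3 of the 5 windows (Irf7, Ifit3 and Rsad2) and were not found in those of Stat2 and Mx1. Among the genes tested, 301 of 11608 windows held them (2.59%), and among all windows 902 of 27457 (3.29%). The windows of the 3 genes are shown 5′ to 3′ on the strand of the gene, with the match in capitals. They are followed by the windows of Lgals3bp and Xaf1, the 2 genes whose levels over the 9 libraries were most like those of the 7. Among genes somewhat less alike, whose windows are not shown, Lgals9 held the letters and Herc6 and Ctla2a did not.
Irf7: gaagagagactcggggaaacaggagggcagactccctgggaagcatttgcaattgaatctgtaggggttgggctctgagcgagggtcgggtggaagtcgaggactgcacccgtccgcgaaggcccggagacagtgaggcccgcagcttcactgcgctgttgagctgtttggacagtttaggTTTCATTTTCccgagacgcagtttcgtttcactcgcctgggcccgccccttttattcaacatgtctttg
Ifit3: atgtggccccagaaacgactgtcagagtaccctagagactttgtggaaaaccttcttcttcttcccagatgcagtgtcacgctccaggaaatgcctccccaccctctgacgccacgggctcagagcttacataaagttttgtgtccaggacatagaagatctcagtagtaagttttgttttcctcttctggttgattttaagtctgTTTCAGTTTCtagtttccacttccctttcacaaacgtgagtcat
Rsad2: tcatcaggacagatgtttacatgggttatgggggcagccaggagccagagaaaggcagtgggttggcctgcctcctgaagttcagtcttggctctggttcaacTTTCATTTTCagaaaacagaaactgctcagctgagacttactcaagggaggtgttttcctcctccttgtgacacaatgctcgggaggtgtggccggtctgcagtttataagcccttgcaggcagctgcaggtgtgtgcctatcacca
Lgals3bp: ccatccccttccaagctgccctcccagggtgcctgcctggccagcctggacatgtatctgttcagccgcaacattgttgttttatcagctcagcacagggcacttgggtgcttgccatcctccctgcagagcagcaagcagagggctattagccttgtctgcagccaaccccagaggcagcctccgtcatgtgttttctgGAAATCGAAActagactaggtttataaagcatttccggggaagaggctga
Xaf1: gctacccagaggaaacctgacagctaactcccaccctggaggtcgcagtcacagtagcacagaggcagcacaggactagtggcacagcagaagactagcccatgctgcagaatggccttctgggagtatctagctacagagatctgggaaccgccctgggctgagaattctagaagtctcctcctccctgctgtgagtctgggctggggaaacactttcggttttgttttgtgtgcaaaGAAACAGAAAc
The windows lie at chr1:205800024-205800273 (minus strand) for Irf7, chr1:241527076-241527325 (plus) for Ifit3, chr6:48788121-48788370 (minus) for Rsad2, chr10:104127849-104128098 (minus) for Lgals3bp and chr10:57415685-57415934 (plus) for Xaf1. The first base of the match stood at -69 in Irf7, -44 in Ifit3, -147 in Rsad2, -50 in Lgals3bp and -11 in Xaf1, counted back from the start. In Irf7, Ifit3 and Rsad2 the match reads in the TTTC form, and in the other 2 in the GAAA form. These matches describe letters only.

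In the count tables, built on mRatBN7.2, the 7 genes lie at 5 places. Irf7 (ENSRNOG00000017414) spans chr1:196367361-196370832 on the minus strand. Stat2 (ENSRNOG00000031081) spans chr7:702495-718967 on the plus strand, and Rsad2 (ENSRNOG00000007539) spans chr6:43047658-43059699 on the minus strand. The other 4 form pairs of neighbours. Ifit2 (ENSRNOG00000036604, chr1:232102570-232108635) and Ifit3 (ENSRNOG00000022839, chr1:232114166-232119307) lie on the plus strand with 5.53 kb between them. Mx1 (ENSRNOG00000001959, chr11:36799660-36823507, minus strand) and Mx2 (ENSRNOG00000001963, chr11:36906111-36930342, plus strand) are 82.6 kb apart. None of the 7 overlaps another gene of the tables. Members of the Ifit and Mx families resemble each other in sequence, so reads could in part have been shared between them when the authors estimated the counts.

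Irf7, the regulator of the interferon response, had the widest spread between the stimulated libraries. It measured 2.75, 8.39 and 6.41 CPM in the blank libraries, 3.38, 4.95 and 4.70 CPM in the SUI libraries, and 1.78, 48.7 and 3.65 CPM in the stimulated libraries. The highest and the lowest of the 9 values were thus both in the stimulated group, whose range encloses both other groups. Stimulated replicate 2 held 6941 counts of Irf7 and was 5.80-fold above the next library, blank replicate 2. It supplied 90% of the summed CPM of its group. The edgeR log2 fold change was 2.05 ± 1.02 (SE) in stimulated over SUI (adjusted p = 0.67), 1.62 ± 1.00 in stimulated over blank (adjusted p = 0.898) and -0.44 ± 0.98 in SUI over blank (adjusted p = 0.891).

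Stat2, the subunit that gives ISGF3 its activation domain, varied least. Its levels were 12.6, 17.7 and 16.9 CPM in blank, 14.4, 11.6 and 16.1 CPM in SUI and 14.5, 24.8 and 14.3 CPM in stimulated muscle. Replicate 2 was again the highest of all, but only 1.41-fold above the next library, and the other stimulated libraries lay within the range of the blank and SUI ones. The log2 fold change in stimulated over SUI was 0.35 ± 0.26 (adjusted p = 0.793).

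Mx1 and Mx2 encode dynamin-like GTPases that block the replication of RNA viruses. Mx1 measured 2.07, 3.16 and 2.46 CPM in blank, 1.97, 2.78 and 3.57 CPM in SUI and 1.50, 20.5 and 3.00 CPM in stimulated muscle. The same library stood 5.74-fold above the next one, while stimulated replicate 1 was the lowest of all 9. For Mx1 the log2 fold change was 1.59 ± 0.79 in stimulated over SUI (adjusted p = 0.673) and 1.69 ± 0.80 in stimulated over blank (adjusted p = 0.898). Mx2 measured 4.82, 6.03 and 4.36 CPM in blank, 2.92, 0.841 and 3.27 CPM in SUI and 1.59, 26.5 and 5.08 CPM in stimulated muscle. All 3 SUI libraries were below all 3 blank ones for Mx2, the one place where 2 groups did not overlap. That difference, -1.12 ± 0.85 on the log2 scale, did not pass the test (adjusted p = 0.694). In stimulated over SUI, Mx2 had the largest fold change of the 7, 2.24 ± 0.87 on the log2 scale, and the only unadjusted p below 0.05 (0.029, adjusted p = 0.555).

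Ifit2 and Ifit3 encode tetratricopeptide repeat proteins that act in complexes recognising viral RNA. Ifit2 measured 9.77, 11.1 and 7.43 CPM in blank, 8.09, 5.09 and 7.91 CPM in SUI and 6.95, 25.0 and 7.46 CPM in stimulated muscle. Ifit3 measured 4.05, 4.35 and 4.39 CPM in blank, 1.87, 3.36 and 4.40 CPM in SUI and 2.40, 13.8 and 2.55 CPM in stimulated muscle. Stimulated replicate 2 was 2.26-fold above the next library for Ifit2 and 3.15-fold for Ifit3. The other 2 stimulated libraries were below the lowest blank library for Ifit3, and within or below the blank range for Ifit2. The log2 fold change in stimulated over SUI was 0.90 ± 0.47 for Ifit2 (adjusted p = 0.695) and 0.97 ± 0.63 for Ifit3 (adjusted p = 0.758).

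Rsad2 encodes viperin, a radical SAM enzyme that makes a chain-terminating nucleotide, and was the scarcest of the 7. It measured 0.582, 0.806 and 0.346 CPM in blank, 0.717, 0.208 and 0.185 CPM in SUI and 0.297, 2.00 and 0.545 CPM in stimulated muscle. All these levels were above the level of 3 counts, and stimulated replicate 2 was 2.48-fold above the next library. The groups overlapped, and the log2 fold change in stimulated over SUI was 1.35 ± 0.78 (adjusted p = 0.72).

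**Figure D1:**
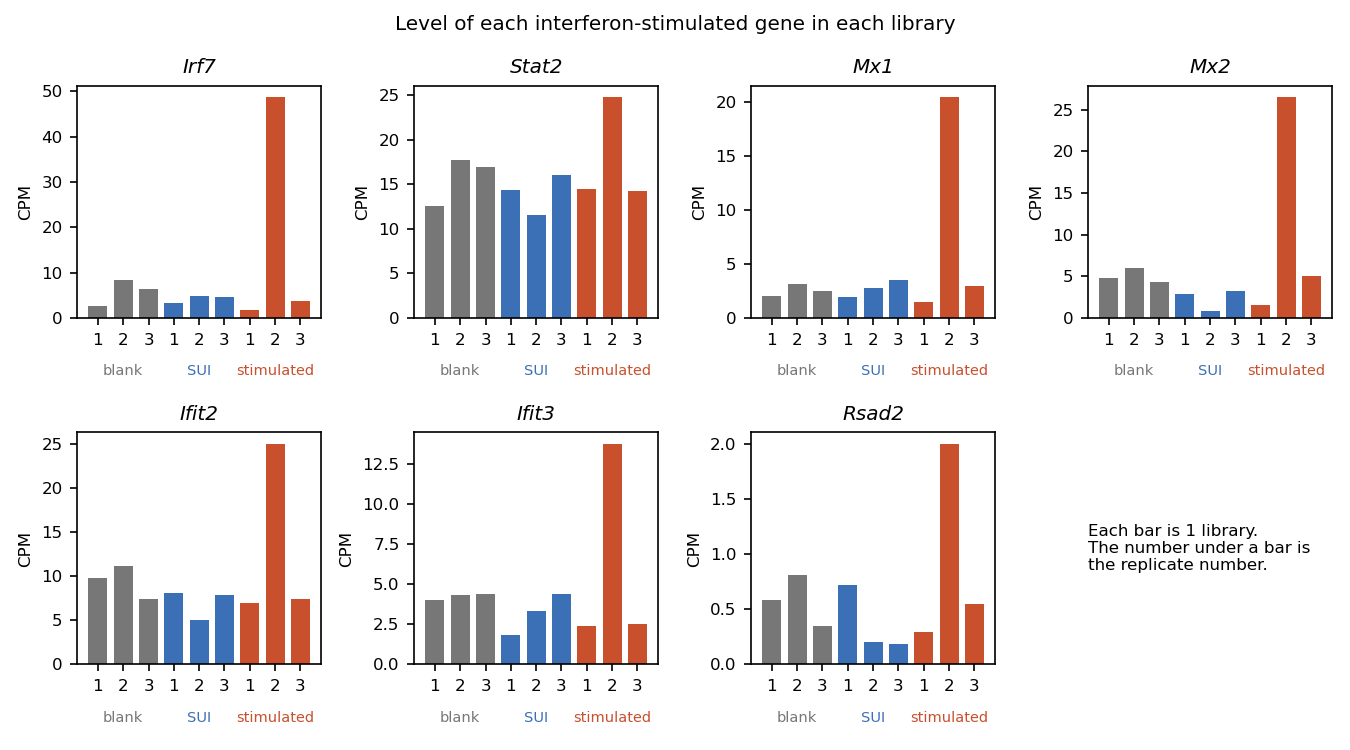
CPM of the 7 genes in each library as bars on a linear axis, with 1 panel per gene and the 3 libraries of each group side by side. Stimulated replicate 2 is the highest bar in all 7 panels, from 1.41-fold (Stat2) to 5.80-fold (Irf7) above the next library, while the other stimulated libraries lie among or below the blank and SUI ones.

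Summed over the 7 genes, the levels were 36.7, 51.5 and 42.3 CPM in blank, 33.3, 28.8 and 40.2 CPM in SUI and 29.0, 161 and 36.6 CPM in stimulated muscle. Stimulated replicate 2 was highest for 7 of 7 genes, where it was highest for 16.7% of all genes tested, and at least 2-fold above the next library for 6 of 7, against 1.03% of all genes. The lowest sum was in SUI replicate 2, just below that of stimulated replicate 1. Stat2, Mx2 and Ifit2 were lowest in SUI replicate 2, Irf7 and Mx1 in stimulated replicate 1, Ifit3 in SUI replicate 1 and Rsad2 in SUI replicate 3, so the lowest values shared no single library. Over the 8 libraries other than stimulated replicate 2, Mx2 ranged from 0.841 to 6.03 CPM and Irf7 from 1.78 to 8.39 CPM. As a share of the summed CPM of the stimulated group, replicate 2 supplied 82.0% for Mx1, 79.9% for Mx2, 73.6% for Ifit3, 70.3% for Rsad2, 63.5% for Ifit2 and 46.3% for Stat2.

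Length-corrected levels (FPKM) allow the genes to be ordered against each other. In blank muscle the mean FPKM ± SD (n = 3) was 3.09 ± 1.07 for Stat2, 2.43 ± 1.46 for Irf7, 2.17 ± 0.606 for Ifit2, 1.76 ± 0.532 for Mx2 and 1.66 ± 0.384 for Ifit3. Each of these differed from its neighbour in the order by less than the SDs. Below them stood Mx1 at 0.619 ± 0.231 and Rsad2 at 0.179 ± 0.0897 FPKM, whose blank ranges overlapped neither each other nor that of Ifit3. In stimulated replicate 2 the order was different, with Irf7 at 21.8 FPKM, Mx2 at 10.5, Ifit2 at 6.59, Ifit3 at 6.10, Mx1 at 5.53, Stat2 at 5.44 and Rsad2 at 0.714 FPKM. The FPKM of Irf7 was 4.00 times that of Stat2 in this library and 0.25 to 0.969 times in the other 8. The ratio of Mx2 to Mx1, 1.89, lay within the 0.44 to 3.41 of the other libraries, and that of Ifit2 to Ifit3, 1.08, within 0.906 to 2.59.

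Stimulated over SUI compares operated muscle with and without the stimulation sessions, and no group had a sham current. All 7 log2 fold changes were positive, from 0.35 to 2.24 with a median of 1.35. Among all genes tested 52.6% were positive, with a median of 0.02. None of the 7 passed an adjusted p of 0.05, as did 0.0123% of all genes, and 1 of 7 (Mx2) had an unadjusted p below 0.05, as did 8% of all genes. DESeq2 called 0 of the 7 (1.21% of the same genes) and gave 2 of them an unadjusted p below 0.05 (10.2% of the same genes). The groups overlapped for all 7, where 9.52% of all genes were higher and 9.28% lower in every stimulated than in every SUI library. Without stimulated replicate 2 the median was 0.04, with 4 genes higher and 3 lower. The values were then -0.68 ± 0.50 for Irf7, 0.04 ± 0.24 for Stat2, -0.30 ± 0.41 for Mx1, 0.51 ± 0.61 for Mx2, 0.04 ± 0.28 for Ifit2, -0.37 ± 0.36 for Ifit3 and 0.18 ± 0.71 for Rsad2. Irf7, Mx1 and Ifit3 therefore changed direction when that library was left out.

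In stimulated over blank, all 7 log2 fold changes were positive as well, from 0.18 (Stat2) to 1.69 (Mx1) with a median of 0.71, beside a median of 0.04 and 54.3% positive over all genes. None passed the adjusted threshold (0.00615% of all genes did), none had an unadjusted p below 0.05 (3.77% of all genes), and for none were all stimulated libraries above or all below the blank ones (7.9% and 4.72% of all genes). DESeq2 also called 0 (0.136% of the same genes), with an unadjusted p below 0.05 for 1 gene of the 7 (5.77%). This comparison shares its stimulated libraries with the one over SUI. Without stimulated replicate 2 all 7 values were negative, from -1.11 for Irf7 to -0.13 for Stat2 with a median of -0.46, and none passed the test (adjusted p 0.968 to 0.973).

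In SUI over blank, which describes the surgical model itself, 6 of the 7 genes were lower and Mx1 was higher at 0.11 ± 0.78, where 50.8% of all genes were higher. The median was -0.42, beside 0.01 over all genes. None of the 7 passed the adjusted threshold, and neither did any other gene (0%). No gene of the 7 had an unadjusted p below 0.05, where 8.18% of all genes did, and DESeq2 gave 0 as well by both measures (1.06% and 10.9% of the same genes). Mx2 alone was lower in every SUI than in every blank library, 1 of 7 where 7.77% of all genes were, and none of the 7 was higher in every SUI library (7.34% of all genes). The remaining values were -0.64 ± 0.78 for Rsad2, -0.42 ± 0.47 for Ifit2, -0.41 ± 0.63 for Ifit3 and -0.17 ± 0.26 for Stat2. The direction of Mx1 turned without blank replicate 1 (-0.02) or SUI replicate 3 (-0.12).

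**Figure D2:**
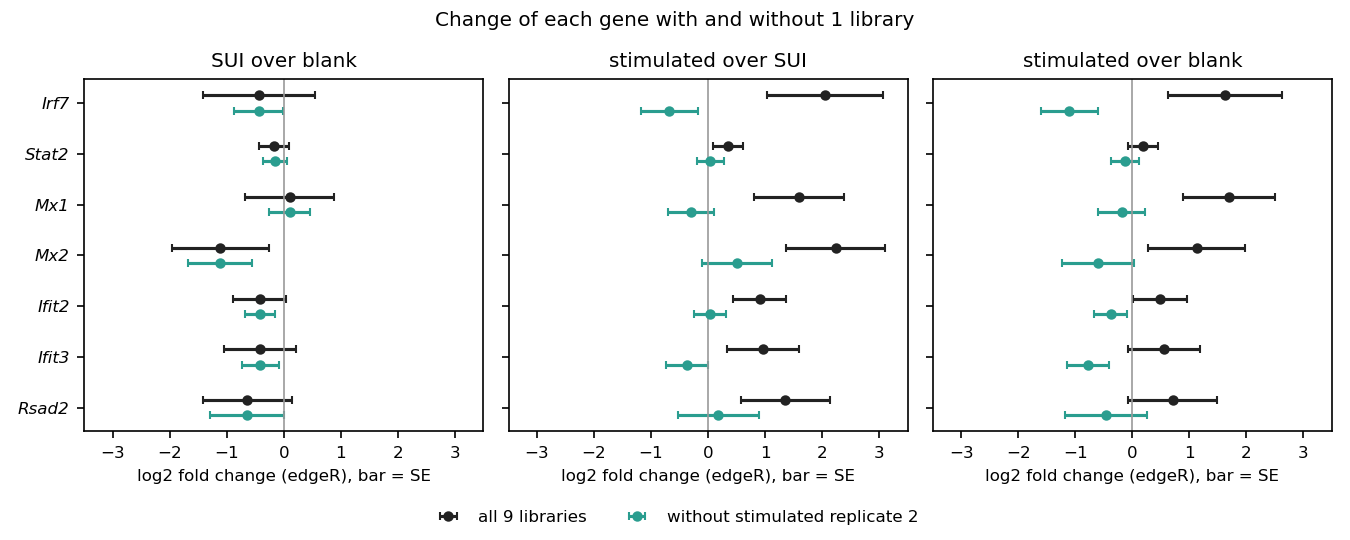
edgeR log2 fold changes ± SE of the 7 genes in the 3 comparisons, from all 9 libraries and again without stimulated replicate 2. In stimulated over SUI the median of the 7 is 1.35 with that library and 0.04 without it, and in stimulated over blank 0.71 and -0.46.

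Other genes of the response were described by lists. Of 53 further interferon-stimulated genes, 48 were tested, and 40 of the 48 were highest in stimulated replicate 2, with 21 at least 2-fold above the next library. Over all genes tested the shares were 16.7% and 1.03%. In stimulated over SUI 41 were higher and 7 lower, with a median log2 fold change of 0.54 and none past the adjusted threshold. Without that library 18 were higher and 30 lower, with a median of -0.10. In stimulated over blank the split was 42 higher and 6 lower (median 0.43), and 10 and 38 without the library (median -0.30). In SUI over blank 16 were higher and 32 lower (median -0.16). The wider list thus had its highest values in the same library as the 7 genes, and the direction of its median turned when that library was left out.

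Among genes of this list with a mean of at least 1 CPM, those with the smallest p in stimulated over SUI were Ifih1, Ddx60, Herc6 and Usp18. Ifih1, which encodes the RNA sensor MDA5, measured 6.59, 7.72 and 7.41 CPM in blank, 4.61, 5.80 and 5.18 CPM in SUI and 7.14, 10.8 and 6.97 CPM in stimulated muscle. Its stimulated libraries were all above its SUI libraries, and its log2 fold change was 0.67 ± 0.23 (adjusted p = 0.513). Usp18, the protease that removes Isg15 from proteins and damps receptor signalling, measured 0.53, 2.31 and 1.46 CPM in blank, 0.877, 1.41 and 1.08 CPM in SUI and 1.36, 7.76 and 1.46 CPM in stimulated muscle. Ddx60 and Herc6 also peaked in replicate 2, at 6.59 and 11.7 CPM. Their log2 fold changes in stimulated over SUI were 1.60 ± 0.56 for Ddx60 (adjusted p = 0.513) and 1.19 ± 0.50 for Herc6 (adjusted p = 0.597).

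Interferon-gamma targets and antigen presentation genes were also high in this library. Of 29 tested, 22 were highest in stimulated replicate 2, where 16.7% of all genes tested were. At least 2-fold above the next library were 4 of the 29, against 1.03% of all genes. In stimulated over SUI 22 were higher and 7 lower (median 0.52), and without that library 10 and 19 (median -0.08). None passed the adjusted threshold in any comparison. The 4 with the smallest p encode parts of MHC class II, which presents peptides to helper T cells. Cd74, the invariant chain, measured 58.2, 104 and 99.4 CPM in blank, 29.6, 41.4 and 55.3 CPM in SUI and 40.6, 180 and 91.9 CPM in stimulated muscle. Its blank libraries were all above its SUI ones, and stimulated replicate 3 lay within the blank range. The log2 fold change in stimulated over SUI was 1.31 ± 0.48 for Cd74 (adjusted p = 0.535), and it was 1.50 ± 0.53 for RT1-Ba, 1.44 ± 0.55 for RT1-Da and 1.52 ± 0.61 for RT1-Db1 (adjusted p 0.521 to 0.575).

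**Figure D3:**
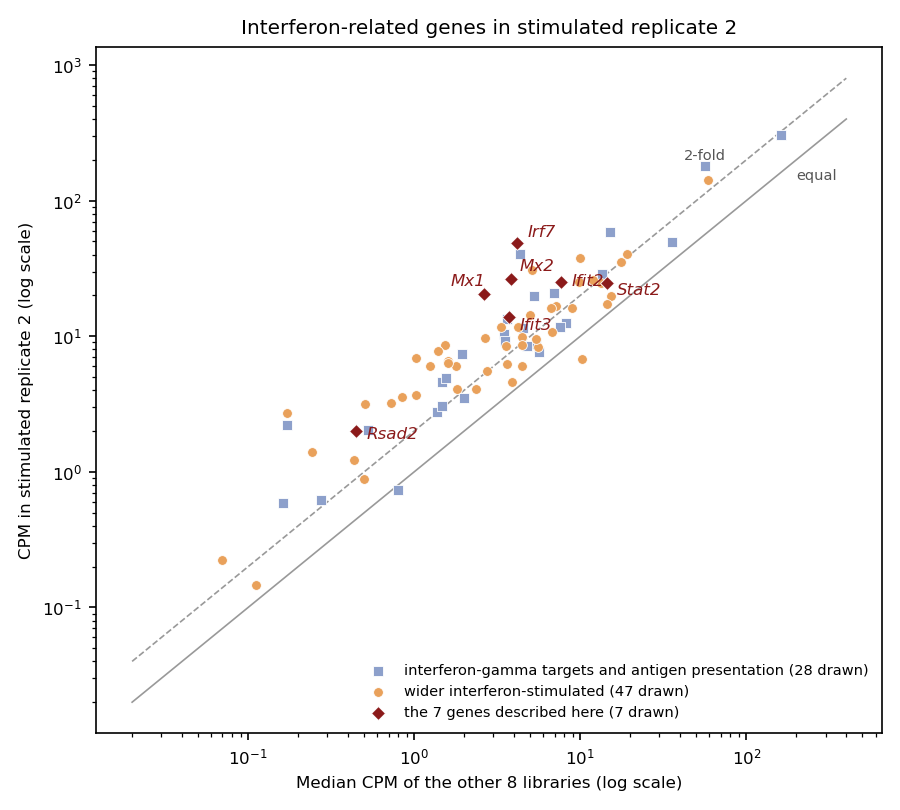
CPM in stimulated replicate 2 against the median CPM of the other 8 libraries, both on log axes, for the 7 genes (diamonds), the wider interferon-stimulated list (circles) and interferon-gamma targets (squares), with lines at equal levels and at 2-fold. Irf7 lies farthest above the 2-fold line among the 7 and Stat2 is the only one of them below it, and genes with a median of 0 in the other libraries are not drawn.

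Ligands, receptors and signal carriers lie upstream of the 7 genes. Interferon ligands were close to absent, with 10 rows of which 8, among them Ifnb1 and Ifng, held 0 counts in all libraries. Ifne, an epithelial type I interferon, held 3 counts in blank replicate 2 and 7 in stimulated replicate 2, and Ifna4 held 1 count in blank replicate 3. A count of 0 still allows up to 3 counts in a library. Of the 10 receptor and signal carrier genes tested, 3 were highest in stimulated replicate 2 (16.7% of all genes), none of them 2-fold above the next library. Ifnar1 measured 20.7, 22.5 and 21.9 CPM in blank, 34.6, 18.9 and 24.3 CPM in SUI and 18.0, 22.2 and 17.5 CPM in stimulated muscle, so stimulated replicate 2 was within the blank range. Ifnar2 had a log2 fold change of -0.01 ± 0.28 in stimulated over SUI (adjusted p = 0.998).

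Stat3, a signal carrier of the interleukin-6 family as well as of interferons, had the smallest p among the receptor and carrier genes. It measured 43.0, 55.7 and 84.8 CPM in blank, 120, 156 and 122 CPM in SUI and 90.3, 58.5 and 55.0 CPM in stimulated muscle. Each SUI library was above each of the other 6, and the log2 fold change in stimulated over SUI was -0.97 ± 0.29 (adjusted p = 0.499). Ifngr1 was at 0.45 ± 0.21 and Jak2 at -0.73 ± 0.43 (adjusted p 0.63 and 0.731). Among 24 nucleic acid sensors and relays, 7 were highest in stimulated replicate 2, and 13 were higher and 11 lower in stimulated over SUI (median 0.05). Tbk1, the kinase that activates interferon regulatory factors, was at -0.61 ± 0.24 and Irak1 at -0.43 ± 0.18, and the RNase H2 subunits Rnaseh2b and Rnaseh2a were at 0.38 ± 0.17 and 0.39 ± 0.28 (adjusted p 0.564 to 0.78). Among 10 inhibitors of interferon signalling, 3 were highest in that library, and 6 were higher and 4 lower (median 0.05). Besides Usp18 (1.65 ± 0.73), the inhibitors with the smallest p were Ptpn11 at -0.47 ± 0.24, Socs3 at -0.72 ± 0.40 and Irf2 at 0.32 ± 0.30 (adjusted p 0.615 to 0.852).

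**Figure D4:**
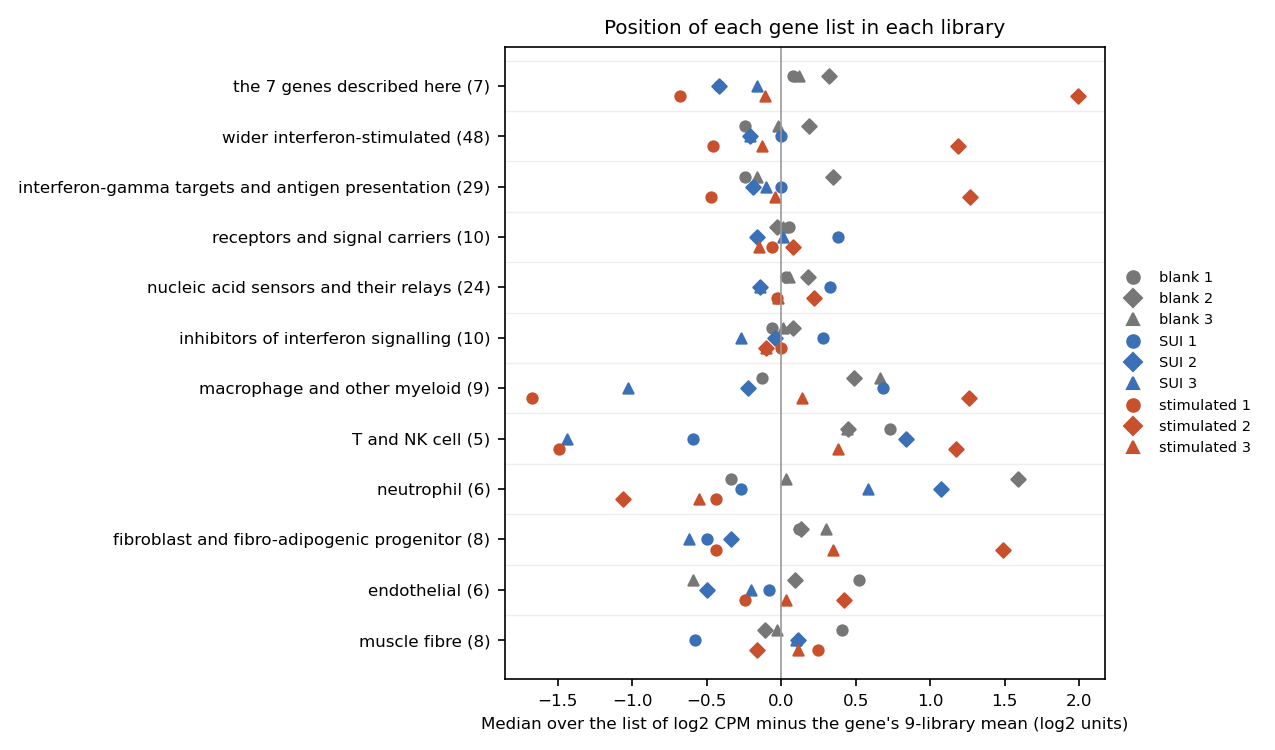
Median log2 CPM of each list in each library, each gene centred on its mean over the 9 libraries. In stimulated replicate 2 the median is 1.99 for the 7 genes, 1.19 for the wider interferon-stimulated list and 1.27 for interferon-gamma targets, against 0.08 for receptors and signal carriers, 0.22 for sensors and -0.10 for inhibitors. Among the cell type lists it is 1.49 for fibroblasts and fibro-adipogenic progenitors, 1.26 for macrophages and 1.17 for T and NK cells. It is 0.42 for endothelial, -0.16 for muscle fibre and -1.06 for neutrophil markers.

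Markers of other cells differed between the libraries too. All 8 markers of fibroblasts and fibro-adipogenic progenitors were highest in stimulated replicate 2, with a summed level of 2640 CPM there, 846 and 1330 CPM in the other stimulated libraries, 1030 to 1270 CPM in blank and 514 to 841 CPM in SUI. Of 9 macrophage and other myeloid markers 5 were highest there, and their sum was 244 CPM, against 34.6 and 121 CPM in the other stimulated libraries, 107 to 181 CPM in blank and 66.4 to 189 CPM in SUI. Of 5 tested T and NK cell markers 2 were highest there, and the list summed to 29.6 CPM, against 4.26 to 19.0 CPM elsewhere, but Cd4 alone gave 28.3 CPM of that sum. The CD3 chains of the T cell receptor complex were not highest there, with Cd3e at 0.0491 CPM and Cd3d at 0. The NK cell markers Nkg7 and Ncr1 were not tested. Over the 3 stimulated libraries they ranged from 0.0839 to 0.393 CPM and from 0 to 0.245 CPM. Their highest values in the other groups were 0.0974 CPM for Nkg7 (SUI) and 0.178 CPM for Ncr1 (blank). Of 6 endothelial markers 2 were highest there, with a sum of 329 CPM, against 258 and 232 CPM in stimulated replicates 1 and 3, 155 to 309 CPM in blank and 182 to 244 CPM in SUI. Stimulated replicate 1, the lowest library for Irf7 and Mx1, also had the lowest sum of macrophage markers, but not of fibroblast or endothelial markers. Their part in the levels of the 7 genes was not tested.

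None of 6 tested neutrophil markers was highest in stimulated replicate 2, where they summed to 1.19 CPM against 1.17 to 7.85 CPM elsewhere, and none of 8 muscle fibre markers was (146000 CPM in a range of 105000 to 202000 CPM). Of 3 tested plasmacytoid dendritic cell markers 1, Tcf4, was highest there, at 8.40 CPM against at most 7.47 CPM elsewhere. The list summed to 653 CPM in a range of 389 to 706 CPM, but nearly all of it was Cox6a2, at 382 to 700 CPM over the libraries. The more specific markers were near or at 0, with Ptcra at 0 in all libraries and Siglech at 0.147 CPM in stimulated replicate 2 and 0 to 0.139 CPM elsewhere. B cell markers summed to 0.329 CPM in stimulated replicate 2, with Ms4a1 at 0 in all 3 stimulated libraries, and the T cell marker Cd3e was at 0 to 0.288 CPM over the 9 libraries.

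Across 12083 genes with a mean of at least 1 CPM, the profile of each was compared with the median profile of the 7 over the 9 libraries, as the root mean square difference of centred log2 CPM. The closest were Lgals3bp (0.206), Xaf1 (0.244), Herc6 (0.27) and Lgals9 (0.27), at 30.7, 6.35, 11.7 and 18.0 CPM in stimulated replicate 2. Lgals3bp encodes a secreted glycoprotein that binds galectins, Xaf1 a partner of the apoptosis inhibitor XIAP, and Lgals9 a galectin. Next came a row with the identifier ENSRNOG00000019438 (0.284). The tables give that identifier, one position and the symbol Rnf31 to 2 rows, and it could not be settled which gene's counts this row holds. After it stood Ctla2a (0.286) and Zfp618 (0.308). Listed interferon genes made up 7 of the 20 closest and 12 of the 50 closest, beside 0.811% of all genes ranked. All these profiles share the same 9 libraries, and each of the genes named was highest in stimulated replicate 2. Of the 7 themselves, Ifit2 (0.29) and Ifit3 (0.302) lay closest to the median profile, and Mx2 (0.707) and Irf7 (0.645) farthest from it.

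The letters of the GAS element (TTC, any 3 bases and GAA) were searched in the same windows as those of the ISRE. They occurred in 8 of 27 windows of the interferon-gamma targets (29.6%) and 6 of 39 of the wider list (15.4%). For receptors it was 1 of 7, for sensors 2 of 19 and for inhibitors 2 of 8. Of the 5 windows of the 7 genes 0 held them, beside 6.06% of the windows of tested genes. The ISRE letters shown in the promoters were also compared with the levels over all genes. Of the wider interferon-stimulated list 22 of 39 windows held them (56.4%), of the interferon-gamma targets 11 of 27 (40.7%), of the sensors 1 of 19 and of the receptors 0 of 7. Among tested genes, 29.9% of the 301 with the letters were highest in stimulated replicate 2, against 16.1% of the 11307 without. For the 263 genes with the letters that belong to none of the lists the share was 22.8%. For the 301 genes, the share in each of the other 8 libraries was lower with the letters than without, from 23.9% against 24.1% in blank replicate 1 to 0.997% against 4.2% in blank replicate 3. For the 263 genes outside the lists it was slightly higher than without in blank replicates 1 and 2, SUI replicates 1 and 2 and stimulated replicate 3. It was 25.9% against 24.1% in blank replicate 1 and 17.9% against 17.3% in SUI replicate 1. In the remaining libraries it was lower. Each gene was counted in 1 library only, so the shares over the 9 libraries are not independent. In stimulated replicate 2, 114 genes with a window were at least 2-fold above the next library. Of these, 22 held the letters (19.3%), beside 2.59% of the windows of tested genes. The 22 include Irf7, Ifit3 and Rsad2 and genes of the lists, such as Lgals3bp and Xaf1. They were not split by list, so this share does not describe unlisted genes.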

How the data were processed

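RNA of 9 libraries was sequenced, 3 in each group, and group and replicate were read from the sample titles. Tools named in the submitters' processing notes are Bowtie2, RSEM 1.3.1, DESeq2 1.4.5 and the build is mRatBN7.2. The strand setting of the counting was not given in the sources used here. Expected counts per gene were deposited as whole numbers and used as they stand. The authors also deposited FPKM values, fragments scaled for gene length and library size by the authors, used for levels between genes and for alternatives. Of the 30518 rows, 4341 have no symbol, and where several rows carry a symbol, that with the most counts was taken.

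Counts were filtered with filterByExpr, scaled by TMM and tested with edgeR 4.0.16 in R 4.3.3 (quasi-likelihood F test, robust, all 9 libraries in one fit, Benjamini-Hochberg adjustment over 16256 genes, threshold 0.05). SEs are the log2 fold change over the square root of F. The procedure was tested on simulated data. A group is not overlapping with another when all its CPM values lie on one side. Alternatives used DESeq2 1.42.0, limma 3.58.1 on log2 FPKM with a pseudocount of 1 or 0.1, other scalings, no filter, a replicate block and leaving out each library. Per list, up to 4 genes with the smallest p in stimulated over SUI and a mean of at least 1 CPM are named, besides the interferon receptors, Ifnb1 and Ifng. A gene that the rule also names is not reported here. Markers and genes named by likeness or by level in stimulated replicate 2 are additional. The genes described, the lists and the rules were chosen with earlier results of these data known, and the promoter letters and window after the levels had been seen. The sample labels do not divide the libraries by batch, so batch differences were not examined.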

Additional observations from a re-analysis of the deposited data

How the results depend on the processing

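None of the 7 genes passed the threshold in any comparison under any of the 18 alternatives, and of their 375 log2 fold changes 360 kept their direction and 15 reversed. Leaving out stimulated replicate 2 accounted for 10 of the reversals. Over the fits that left out 1 library each, stimulated over SUI ranged from -0.68 to 2.59 for Irf7, -0.30 to 2.08 for Mx1 and -0.37 to 1.35 for Ifit3, and stimulated over blank from -1.11 to 2.15 for Irf7, -0.13 to 0.32 for Stat2, -0.19 to 2.19 for Mx1, -0.60 to 1.64 for Mx2, -0.38 to 0.79 for Ifit2, -0.78 to 0.94 for Ifit3 and -0.46 to 1.14 for Rsad2. In SUI over blank, Mx1 ranged from -0.12 to 0.29, and Stat2 was 0.03, 0.05 and 0.03 on log2 FPKM (pseudocount 1, pseudocount 0.1, and 1 with a mean FPKM of at least 1, a filter that Rsad2 did not pass). The median of the 7 ranged over the same fits from 0.04 to 1.77 in stimulated over SUI, from -0.46 to 1.14 in stimulated over blank and from -0.50 to -0.29 in SUI over blank. It was 0.40 in stimulated over SUI on log2 FPKM with a pseudocount of 1 and 0.45 with the filter added, a scale that understates changes of low genes.

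Among all genes, 0, 2 and 1 were called in SUI over blank, stimulated over SUI and stimulated over blank. DESeq2 called 182, 198 and 27, and library totals alone 1 in stimulated over SUI, with the median of all genes shifted to 0.19, -0.11 and 0.09. With the 6 libraries compared alone, 0 and 0 genes were called in stimulated over SUI and stimulated over blank. With log2 FPKM and a pseudocount of 1 the counts were 0 and 0, also 0 and 0 with the filter, and 0 in stimulated over SUI with a pseudocount of 0.1. Leaving out 1 library gave 0 to 1, 0 to 3 and 0 to 1. The cause of these differences was not tested. With replicate number as a block, 1 and 0 genes were called in stimulated over SUI and stimulated over blank, and the medians of the 7 genes were -0.33, 0.85 and 0.62. The numbers did not pair the libraries, since the 9 same-number pairs had correlations of -0.218 to 0.113 in their deviations from the group means, and 2 of the 9 libraries correlated best with their own number. Depth limits Rsad2 and the interferon ligands most, and with 3 libraries a group 1 library sets the mean of the stimulated group for these genes.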

Other observations

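The 12088 genes with a mean of at least 1 CPM were ranked by how far stimulated replicate 2 stood above the next library. Of the first 10 genes 7, and of the first 20 genes 11, belonged to the 7 genes described or to the interferon lists. The 7 genes, already known to peak in this library, supplied 3 and 4 of these. Among the 12083 genes ranked by likeness, which leave out the 7, 0.811% were on the interferon lists. The genes named here were chosen after their values were seen. The MHC class I gene RT1-T24-1 came first, at 40.6 CPM against at most 4.90 CPM elsewhere, 8.27-fold above the next library. Ifi27l2a, of the interferon-induced Ifi27 family, was at 26.0 CPM and 6.88-fold above the next. Irf7, Mx1 and Mx2 ranked 3, 4 and 6. Between them stood Siglec1, a sialic acid receptor of macrophages, at 1.48, 2.77 and 3.01 CPM in blank, 3.26, 2.03 and 0.904 CPM in SUI and 0.351, 14.7 and 2.74 CPM in stimulated muscle. Its lowest value was in stimulated replicate 1, like that of Irf7 and Mx1. The mast cell chymase Cma1 ranked 8, at 5.00 CPM against at most 1.30 CPM elsewhere.

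Below that level, Oas2, which makes the 2-5A activator of RNase L, was at 2.71 CPM in stimulated replicate 2 and at most 0.316 CPM elsewhere, 8.59-fold apart. Another interferon-induced family member, Slfn4, was at 40.4 CPM there, and it was also high in blank replicate 2 at 12.7 CPM, the library with the next highest Irf7.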
